A study of Mus musculus with 6 samples.

Results

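The neurotrophins and their receptors were followed in the cortex of microglia-depleted and control mice through 6 genes, the ligands Bdnf and Ntf3 and the receptors Ntrk2, Ntrk3, Ngfr and Sort1. They were taken by symbol from a table of 23366 genes, and all 6 were among the 14385 genes tested (those averaging 0.5 FPKM or more across all mice). Values are FPKM, fragments per kilobase of transcript scaled to sequencing depth and between libraries by TMM. Depleted mice (A4, A5 and A6) were CX3CR1-CreERT2+/- iDTR+/- and control mice (A1, A2 and A3) were CX3CR1-CreERT2+/- littermates without iDTR, all C57BL/6 and all given tamoxifen. In this model Cre from the Cx3cr1 locus removes a stop cassette in front of a diphtheria toxin receptor, and the toxin then kills the cells that carry it. Cortex was taken at day 10 after depletion, with 1 library per mouse. The sources used here do not state whether the control mice were given the toxin, and toxin and depletion cannot be told apart where the controls went without it. They do not give the age of the mice at collection.

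Neurotrophins are small secreted growth factors that keep neurons alive and shape their synapses. Each binds a Trk receptor tyrosine kinase: BDNF binds TrkB, the product of Ntrk2, and NT-3, the product of Ntf3, binds TrkC, the product of Ntrk3. Their uncleaved precursors bind the p75 receptor, the product of Ngfr, together with sortilin, the product of Sort1, which also sorts the precursors inside the cell. In the adult cortex BDNF is made mainly by excitatory neurons in response to activity, and TrkB is found on neurons and, in a form without the kinase, on astrocytes. The p75 receptor is best known in the basal forebrain cholinergic neurons that project to the cortex.

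In GENCODE M21 (GRCm38), Bdnf lies at chr2:109674700-109727007 on the plus strand, Ntrk2 at chr13:58806569-59133970 on the plus strand and Sort1 at chr3:108284082-108361511 on the plus strand. Ntf3 lies at chr6:126101412-126166910, Ntrk3 at chr7:78175959-78738012 and Ngfr at chr11:95568818-95587735, all on the minus strand. Ntf3 is 13.02 Mb from Gt(ROSA)26Sor, the locus that carries the iDTR transgene. The table gives 1 value per gene, which pools forms that act differently. The annotated coding sequences of Ntrk2 hold 821 codons for the kinase receptor and 466 to 492 for shorter forms, and those of Ntrk3 hold 825 to 864 codons for long forms, 612 for a shorter one and 82 and 86 for the remaining 2.

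Bdnf has several start sites that are used in different cells and states, and the 7 in the RefSeq promoter table (GRCm38.p6) are likewise pooled in its value. The sequence shown is the upstream part of the only start site whose window holds TCACGTCA, a variant of the cAMP response element (CRE) through which CREB acts, because regulators of Bdnf transcription and genes of neuronal activity are described with Bdnf. It covers the 80 bases before the start site, chr2:109692356-109692435 on the plus strand, with the match in capitals, which begins 38 bases before the start (position -38).
Bdnf start site 3: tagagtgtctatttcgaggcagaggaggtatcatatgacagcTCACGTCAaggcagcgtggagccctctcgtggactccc
On either strand, TCACGTCA was in 115 of 32851 windows of 250 bases upstream of a start site (0.35%). The palindromic CRE, TGACGTCA, which shares 7 of its 8 letters, was in 508 of them (1.55%) and in 0 of the 7 Bdnf windows. A match of letters is a description of the window, and FPKM per gene does not say which start site was used.

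The libraries differed in ways that bear on single mice. From the spacing of low FPKM values, about 10.9 to 20.5 M fragments stood behind the values of a mouse, with the 3 control mice at 14.9 M or more and the 3 depleted mice at 13.8 M or less. These estimates are approximate, and for A5 a value of 14.2 M explained the spacing nearly as well. A4 correlated least with the other mice (mean r = 0.972, against 0.981 to 0.985). It had the highest Gfap, a marker of reactive astrocytes, at 300.3 FPKM against 64.5 to 120.1 in the other mice. Gfap was not raised in A4 alone: no control mouse exceeded 88.3 FPKM, and no depleted mouse was under 108.5 FPKM. Its log2 fold change of depleted against control was 1.00 (limma, adjusted p = 0.396), and 0.54 without A4. Xist was at 4.74 FPKM in A3 and 30.9 to 46.7 in the other mice, while the Y-linked Ddx3y was at 1.09 FPKM in A4 and at most 0.01 in all others, A3 included. Hence A3 and A4 do not look like the other mice in these genes, and member values without each of them are given. The 8 cortical excitatory neuron markers summed to 936.4 to 1124 FPKM in control mice and 919.4 to 1049 in depleted mice, so the tissue label holds in both groups. The 10 microglia markers summed to 107.5 to 130.2 FPKM in control and 112.3 to 143.7 in depleted mice, and the groups overlapped at day 10. In bulk tissue, fewer cells of a type and less RNA per cell cannot be told apart. The labels do not say whether the mice came from different litters or days.

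None of the 6 members differed between the groups at an adjusted p under 0.1 with limma. With limma on these values the background of such calls is low, since 4 of 14385 genes were called (0.0278%). With a mouse left out, 2 were called without A1, 8 without A6 and 29 without A5. The paper tested counts with DESeq2 at an adjusted p under 0.1 and reported more genes. That test was not run here, so the low background holds for limma on FPKM only. By the looser measures, 0 of 6 members had an unadjusted p under 0.05, against 10.5% of all genes tested (786 to 2056 genes when a mouse was left out, 1515 with all 6 mice), and 0 of 6 had groups that did not overlap, against 17.6%. With 6 genes, a share of 0 is near these backgrounds and is no result about the members. The median size of the difference over the members was 0.13 on the log2 scale, beside 0.12 over all genes tested. 4 members had higher and 2 (Bdnf and Sort1) lower values in depleted mice, and 48% of all genes were higher. What the data give for each gene is therefore its level and the interval within which its difference lies.

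**Figure D1:**
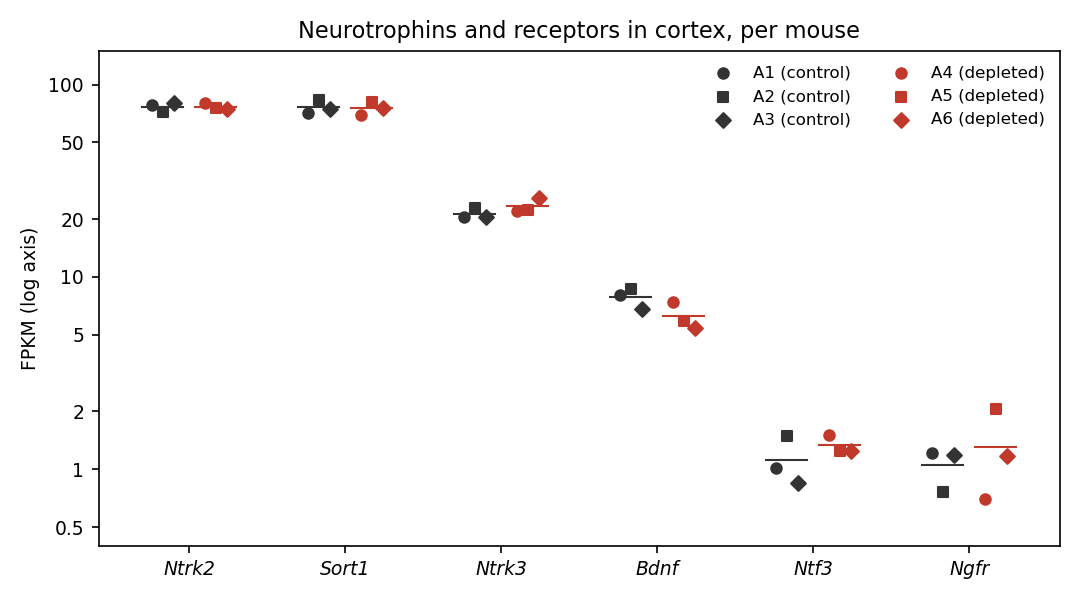
FPKM of each member in each mouse on a log axis, control mice in black and depleted mice in red, with a line at the mean of the 3 mice. The members fall into separate levels, from about 76 FPKM for Ntrk2 and Sort1 to about 1 for Ntf3 and Ngfr, and the 2 groups overlap for all 6.

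The levels themselves spanned a wide range. FPKM is per length, so levels can be set beside each other. Ntrk2 (76.8 FPKM over the 6 mice) and Sort1 (76.0 FPKM) were the highest, at the 93rd percentile of the genes tested, and they could not be put in order: Ntrk2 was above Sort1 in 3 of 6 mice. Sort1 was 3.41 times Ntrk3 (22.3 FPKM), Ntrk3 was 3.16 times Bdnf (7.05 FPKM) and Bdnf was 5.76 times Ntf3 (1.23 FPKM), each in that order in 6 of 6 mice with no overlap. Ntf3 and Ngfr (1.18 FPKM) again could not be ordered, since Ntf3 was above Ngfr in 3 of 6 mice. The Trk receptor genes of both ligands thus had higher RNA levels than the genes of the ligands, in every mouse.

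Bdnf encodes the main neurotrophin of the adult cortex. It was at 8.06, 8.61 and 6.84 FPKM in the control mice and at 7.44, 5.93 and 5.43 FPKM in the depleted mice A4, A5 and A6. The control mean was 7.84 ± 0.906 FPKM (SD, n = 3) and the depleted mean was 6.27 ± 1.05 FPKM (SD, n = 3). A5 and A6 lay below all control mice, and A4 lay between A3 and A1, so the groups overlapped. The log2 fold change of depleted against control was -0.29 with a 95% interval of -0.60 to 0.03 on the log2(FPKM + 1) scale (limma, unadjusted p = 0.0681, adjusted p = 0.509), and the exact two-sided permutation test gave p = 0.2, where 0.1 is the smallest it can give. The interval runs from a ratio of 0.66 to 1.02. Bdnf had the largest difference of the members, at the 86.5th percentile of sizes over all genes tested. Without A4 it was -0.40 (limma, unadjusted p = 0.0111, adjusted p = 0.276), and without A3 it was -0.37. It was negative whichever mouse was left out, between -0.40 and -0.20. Of the windows of 75 bases in annotated Bdnf transcripts, 11.8% lie in the antisense gene Gm45346, which has no row in the table. Whether counting used strand is not given in the sources used here, so reads of the pair may be mixed.

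Ntf3 encodes NT-3, the ligand of TrkC. It was at 1.01, 1.49 and 0.85 FPKM in the control mice and at 1.5, 1.25 and 1.25 FPKM in the depleted mice. A2 nearly reached the highest depleted mouse, A4, and the groups overlapped. The means were 1.12 ± 0.333 (SD, n = 3) and 1.33 ± 0.144 (SD, n = 3) FPKM. The log2 fold change was 0.15 with a 95% interval of -0.23 to 0.53 (limma, adjusted p = 0.769), and it was 0.10 without A4 and 0.06 without A3. About 19 to 43 fragments per mouse stood behind Ntf3, against 238 to 690 behind Bdnf, so Ntf3 was measured with far less precision.

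The ligands were also set against each other within each mouse. The ratio of Bdnf to Ntf3 was 7.98, 5.78 and 8.05 in control mice and 4.96, 4.74 and 4.34 in depleted mice. All control ratios were above all depleted ratios, with means of 7.27 ± 1.29 and 4.68 ± 0.313 (SD, n = 3; exact permutation test, p = 0.1, the smallest possible). It was the only 1 of the 15 ratios between members whose groups did not overlap, and it was picked out after its values were seen, so it is a description.

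Ntrk2 encodes TrkB, the receptor of BDNF. It was at 78.2, 71.9 and 80.2 FPKM in the control mice and at 80.7, 75.2 and 74.9 FPKM in the depleted mice. The depleted mice ran from within the control range to just above it. The means were 76.8 ± 4.34 and 76.9 ± 3.25 FPKM (SD, n = 3), and the log2 fold change was 0.0042 with a 95% interval of -0.16 to 0.17 (limma, adjusted p = 0.988). This was the narrowest interval of the members, and it holds ratios from 0.89 to 1.13. Its size was at the 1.84th percentile of all genes tested. Its sign turned with the mouse left out, from -0.04 without A2 to 0.04 without A3. It was -0.03 without A4. A shift between the kinase and the truncated forms would not show in this value.

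Ntrk3 encodes TrkC. It was at 20.5, 22.7 and 20.5 FPKM in the control mice and at 21.9, 22.4 and 25.9 FPKM in the depleted mice. A6 was the highest of all mice and the other depleted mice lay within the control range. The means were 21.2 ± 1.30 and 23.4 ± 2.17 FPKM (SD, n = 3), and the log2 fold change was 0.13 with a 95% interval of -0.08 to 0.34 (limma, adjusted p = 0.649). It was 0.17 without A4, 0.11 without A3 and 0.06 without A6.

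Ngfr encodes the p75 receptor. It was at 1.21, 0.76 and 1.18 FPKM in the control mice and at 0.70, 2.05 and 1.17 FPKM in the depleted mice. The depleted mice held both the lowest value, in A4, and the highest, in A5, and the control range lay between them. The means were 1.05 ± 0.252 and 1.31 ± 0.685 FPKM (SD, n = 3). The log2 fold change was 0.14 with a 95% interval of -0.39 to 0.66 (limma, adjusted p = 0.861), the widest of the members. It was 0.34 without A4 and 0.18 without A3, and it changed sign to -0.09 without A5. About 33 to 77 fragments per mouse stood behind Ngfr. The 7 markers of basal forebrain cholinergic neurons, cells known for p75, summed to 8.78, 6.81 and 9.03 FPKM in the control mice and to 5.77, 9.04 and 8.71 FPKM in the depleted mice. A4 and A2 were the lowest and next lowest in both. A5 stood apart as the highest in Ngfr, at 2.05 FPKM, but its marker sum of 9.04 FPKM was level with that of A3 (9.03 FPKM). None of the 7 markers was at 0 in all mice, and their part in the spread of Ngfr was not tested.

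Sort1 encodes sortilin. It was at 70.8, 83.5 and 74.9 FPKM in the control mice and at 69.7, 81.3 and 76.0 FPKM in the depleted mice. The groups covered nearly the same range. The means were 76.4 ± 6.48 and 75.7 ± 5.84 FPKM (SD, n = 3), and the log2 fold change was -0.01 with a 95% interval of -0.22 to 0.19 (limma, adjusted p = 0.970). It was 0.04 without A4 and -0.03 without A3. Sort1 shares 3.47% of its windows of 75 bases with the antisense gene Gm12523, which has no row in the table.

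**Figure D2:**
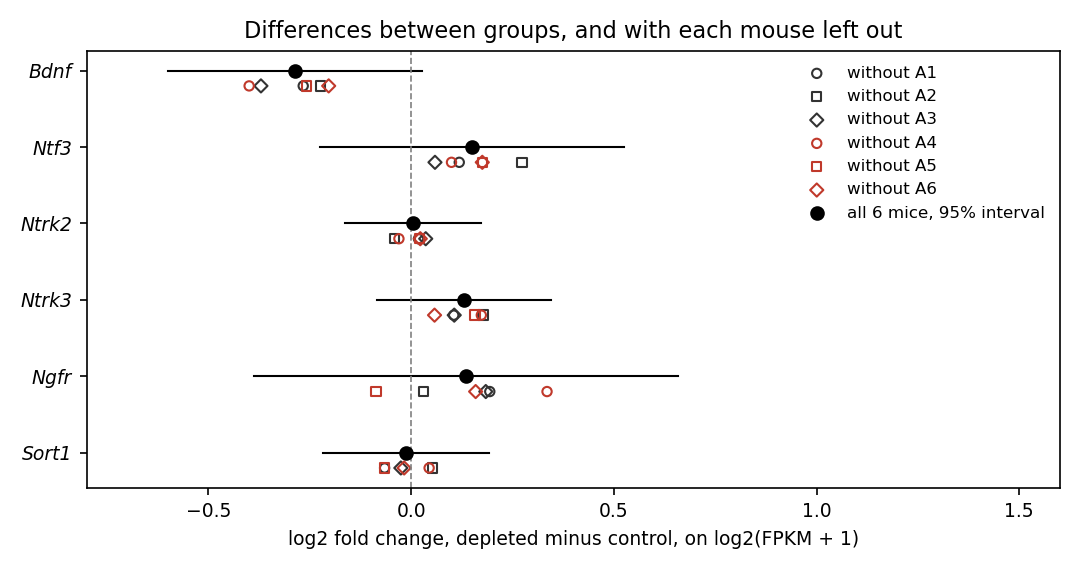
Difference between depleted and control mice for each member (black point, log2 fold change on log2(FPKM + 1), with its limma 95% interval) and the same with each mouse left out (open symbols). All 6 intervals include 0. Bdnf, Ntf3 and Ntrk3 keep their sign whichever mouse is left out, and Ntrk2, Ngfr and Sort1 do not.

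The spread between mice also set what could be seen. The coefficient of variation among control mice was 5.65% for Ntrk2, 6.12% for Ntrk3, 8.48% for Sort1, 11.6% for Bdnf, 24.0% for Ngfr and 29.8% for Ntf3. Among depleted mice it was 52.4% for Ngfr and 10.8% for Ntf3. The median for genes within 2-fold of their level was 18.4% for Ngfr and 18.0% for Ntf3 among control mice, and 33.1% and 32.3% among depleted mice. Ngfr was thus above that median in both groups, and Ntf3 was above it in control and below it in depleted mice.

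For each member, the 3 genes most like it across the 6 mice were named by the Pearson correlation of log2(FPKM + 1) among 9443 or 9444 genes averaging 5 FPKM or more. They were Tmem150a (r = 0.98), Ndor1 and Tmpo for Bdnf, Gspt1 (r = 0.99), Sec62 and Tm9sf3 for Ntf3, and Fau (r = 0.97), Ssbp1 and Ddx28 for Ntrk2. For Ntrk3 they were Scn3b (r = 0.98), Sars2 and Kctd4, for Ngfr Atp6ap1l (r = 0.99), Ccdc157 and Psma5, and for Sort1 Nfat5 (r = 0.99) and Rnf165 among them. Between 36 and 80 genes had an r above 0.9 with a given member. With few mice and many genes such values are common, and they are given as a description only.

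Of the other neurotrophin ligands and receptors, Ntf5, the gene of NT-4, was at 0 to 0.14 FPKM and was not tested. The sortilin relatives differed among themselves. Sorl1, a sorting receptor that also carries TrkB, was at 21.5, 22.7 and 22.0 FPKM in the control mice and at 14.2, 20.6 and 18.9 FPKM in the depleted mice. The depleted mice lay below all control mice, with a log2 fold change of -0.30 (95% interval -0.60 to -0.0044; limma, unadjusted p = 0.0474, adjusted p = 0.468) that was -0.15 without A4. Sorcs1 (-0.08), Sorcs2 (-0.07) and Sorcs3 (0.15), also of the sortilin family, overlapped between the groups, and the first 2 changed sign with a mouse left out. Nradd, which encodes a death-domain protein related to p75, was at 0.99, 0.67 and 1.16 FPKM in the control mice and at 1.61, 1.92 and 1.67 FPKM in the depleted mice. Its values did not overlap, and its log2 fold change was 0.50 (95% interval 0.14 to 0.86; limma, unadjusted p = 0.0118, adjusted p = 0.378). It did not pass the threshold.

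The genes around the members were read from 7 lists of 131 genes in all, of which 119 were tested. The members are not in these lists, the ligands and receptors outside the members are, and 1 list holds the GDNF and CNTF families, which are other growth factors and not part of the neurotrophin pathway. With limma, 0 of 119 had an adjusted p under 0.1. At an unadjusted p under 0.05 there were 18 genes (15.1%, against 10.5% of all genes), 7 higher and 11 lower, and 31 genes did not overlap between the groups (26.1%, against 17.6%). The median log2 fold change was -0.02, near the -0.01 of all genes tested, and 53 genes were higher and 66 lower in depleted mice.

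Proneurotrophins are cut by furin-like convertases in the cell and by plasmin and matrix metalloproteinases outside it. Of 15 genes in this list 12 were tested, 5 higher and 7 lower, with a median of -0.01 that was -0.08 without A4 and 0.02 without A6. The largest value was that of Mmp9, a matrix metalloproteinase, at 0.30, and it was 0.02 without A4, whose 2.02 FPKM stood above 0.50 to 0.73 FPKM in the other mice. The smallest was that of Pcsk6, a convertase, at -0.38 (limma, unadjusted p = 0.0358, adjusted p = 0.451), and it did not overlap between the groups. Mmp3 was at 0 in all mice.

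Downstream of the Trk receptors, adaptors recruit the Ras, PI3-kinase and phospholipase C pathways. All 41 genes of this list were tested, 20 higher and 21 lower, with a median of -0.0044. At an unadjusted p under 0.05 with limma, where 10.5% of all genes tested were, 3 were higher and 4 lower. Without overlap between the groups, 8 were higher and 7 lower, beside 17.6% of all genes tested. The largest value was that of Sh2b2, an adaptor, at 0.26. The smallest was that of Shc3, the neuronal Shc adaptor, at 11.8, 12.6 and 12.8 FPKM in the control mice and 4.92, 10.4 and 7.32 FPKM in the depleted mice. All depleted mice lay below all control mice. Its log2 fold change was -0.70 (95% interval -1.18 to -0.23; limma, unadjusted p = 0.00903, adjusted p = 0.378) and -0.46 without A4.

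Of 16 partners and adaptors of p75, 7 were higher and 9 lower, with a median of -0.02. At an unadjusted p under 0.05 with limma, where 10.5% of all genes tested were, 1 was higher and 3 lower. Without overlap between the groups, 1 was higher and 4 lower, beside 17.6% of all genes tested. The largest value was that of Ripk2, a kinase that binds p75, at 0.45 (limma, unadjusted p = 0.0180, adjusted p = 0.396). The smallest was that of Mag, a myelin protein that signals through the Nogo receptor and p75, at -0.47 (limma, unadjusted p = 0.0130, adjusted p = 0.386), and it was -0.28 without A4. Rtn4r, the gene of the Nogo receptor, was chosen after its values were seen, and was at 44.8, 46.9 and 42.8 FPKM in the control mice and 35.0, 37.7 and 34.6 FPKM in the depleted mice. It did not overlap between the groups and had a log2 fold change of -0.32 (limma, unadjusted p = 0.00259, adjusted p = 0.370). The 8 oligodendrocyte markers, Mag among them, had lower values in depleted mice in 8 of 8 (48% of all genes were higher), with 4 not overlapping (17.6% of all genes), and summed to 2976 to 3242 FPKM in control and 2606 to 2698 in depleted mice. None of these markers was at 0. The part of this cell type in the values of Mag, itself a marker, and of Rtn4r was not tested.

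**Figure D3:**
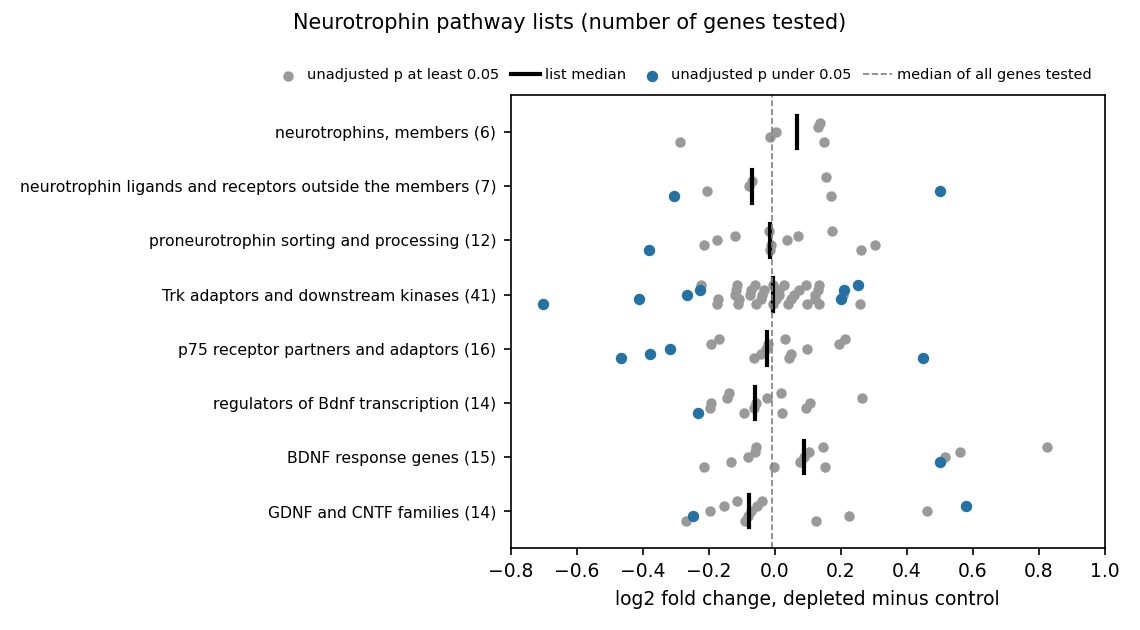
Log2 fold change of each tested gene in the members and the 7 other lists, with the list median (black line) and the median of all genes tested (dashed line). Blue points have an unadjusted p under 0.05. The list medians lie between -0.08 and 0.09, and Shc3 at -0.70 and Egr2 at 0.82 are the ends of the range.

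A pair of lists stands on either side of Bdnf: the factors that act on its promoters and the genes that respond to BDNF or to neuronal activity. Of 15 regulators 14 were tested, 5 higher and 9 lower, with a median of -0.06. The largest value was that of Mef2c, an activity-regulated factor, at 0.26, and it was 0.06 without A4. The smallest was that of Crtc1, a CREB coactivator, at -0.23 (limma, unadjusted p = 0.0243, adjusted p = 0.418), with 38.1, 37.3 and 38.9 FPKM in the control mice and 32.0, 35.5 and 29.6 FPKM in the depleted mice. Its groups did not overlap.

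Of 15 response genes, all tested, 9 were higher and 6 lower, with a median of 0.09 that became -0.16 without A4. The 15 genes summed to 355.8 to 452.2 FPKM in the control mice and to 832.8, 388.2 and 314.2 FPKM in A4, A5 and A6, so A4 alone stood above the control mice. The largest value was that of Egr2, an immediate-early transcription factor, at 0.82, and it was 0.09 without A4. The smallest was that of Egr4, of the same family, at -0.21, and it was -0.58 without A4 and ran up to 0.01 with other mice left out.

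Egr1, Fos, Arc, Vgf and Inhba were chosen after their values were seen. Egr1, an immediate-early gene, was at 302.6 FPKM in A4 against 57.3 to 87.0 FPKM in the other mice. Fos, also an immediate-early gene, was at 40.7 FPKM in A4 against 8.75 to 13.3 FPKM. Vgf, which encodes a secreted neuropeptide precursor, was at 176.4 FPKM in A4 against 69.6 to 95.4 FPKM, and Arc was highest in A4 too. In the same mouse Bdnf, at 7.44 FPKM, was the highest of the depleted mice and within the control range. Whether the state of A4 bears on its Bdnf value was not tested.

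Inhba, which encodes an activin subunit, was higher in all depleted mice than in any control mouse, at 1.24, 1.15 and 1.35 FPKM in the control mice and 2.45, 2.19 and 1.91 FPKM in the depleted mice. Its log2 fold change was 0.50 (95% interval 0.18 to 0.82; limma, unadjusted p = 0.00629, adjusted p = 0.370), and it was 0.44 without A4. It did not pass the threshold.

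**Figure D4:**
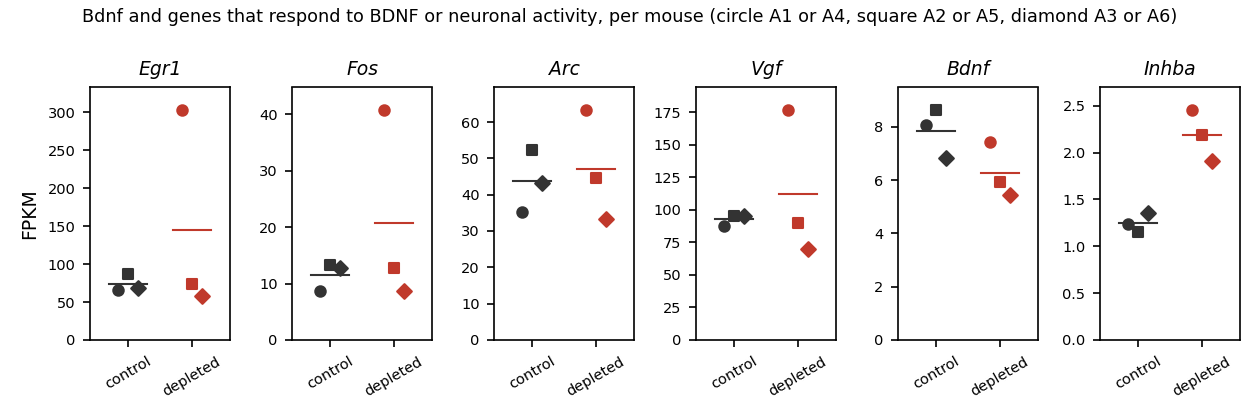
FPKM per mouse of Bdnf and 5 response genes, control mice in black and depleted mice in red, with a line at each mean and every axis from 0. A4, the circle among the depleted mice, lies far above all others for Egr1, Fos and Vgf and within the control range for Bdnf, while Inhba is higher in all 3 depleted mice.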

How the data were processed

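The authors deposited a gene table of FPKM, TMM-normalized and rounded to 2 decimals, with a column for each of the 6 mice. The submitters' processing notes name TopHat, RSEM and DESeq and the build mm9, with no versions. Libraries were poly(A)-selected and read as 75 bp paired ends. Gene positions came from GENCODE M21 (GRCm38) by symbol, not from mm9, and promoters from RefSeq (GRCm38.p6), whose table held 4 of the 6 members.

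FPKM are not counts, so the log2(FPKM + 1) values of the 14385 genes averaging 0.5 FPKM or more were tested between the groups by limma 3.58.1 (R 4.3.3; eBayes with trend), and p-values were adjusted by Benjamini-Hochberg and called under 0.1. Fold changes of low genes are understated by the pseudocount of 1. Groups came from the labels, and no covariate was used. The fit was tested on simulated data. Depth was estimated from low values of 1958 genes with a single transcript, and fragments per gene from it and the median coding transcript.

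The members and lists were chosen with earlier results of these data known. Named genes are the members, the other ligands and receptors, the largest and smallest of each pathway list and the 3 genes most like each member, unless said otherwise. Some genes that this rule names are not reported here. For cell type lists the sums are given instead. Alternatives were other pseudocounts, filters, scalings, variance models, array weights, GC-content correction, a threshold of 0.05 and leaving out each mouse. Python 3.11.15 and scipy 1.17.1 were used for the other steps.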

Additional observations from a re-analysis of the deposited data

How the results depend on the processing

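No member was called under any of the 17 alternatives, and the lowest adjusted p was 0.276 (limma), for Bdnf without A4. At an unadjusted p under 0.05, the absence of Bdnf depended on the processing. Its unadjusted p was 0.0681 (limma) in the main fit and as low as 0.0271 (limma) under alternatives that kept all 6 mice. No paired analysis was possible because the groups share no replicate numbers. Bdnf, Ntf3 and Ntrk3 kept their sign under all alternatives, with leave-one-out ranges of -0.40 to -0.20, 0.06 to 0.27 and 0.06 to 0.18 on the log2 scale. Ntrk2 turned to -0.0211 with array weights and to -0.0220 with GC-content correction, and ran from -0.0417 to 0.0361 with a mouse left out. Sort1 turned to 0.00522 with quantile normalization and to 0.0427 with array weights, and ran from -0.0658 to 0.0521. Ngfr ran from -0.0864 to 0.335. The cause was not tested. Over all genes tested, 4 were called, 2 with eBayes without trend, 20 with array weights, and 2 to 29 with a mouse left out. The count at an unadjusted p under 0.05 was 1515, and 1249 with GC-content correction. Of the list medians, 297 values stayed within the spread between mice and 14 moved beyond it. Low fragment numbers limit Ntf3 and Ngfr, and 3 mice against 3 limit all.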

Other observations

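Other growth factor families with neurotrophic action, those of GDNF and CNTF, were described by 21 genes, of which 14 were tested. Of these, 4 were higher and 10 lower in depleted mice, with a median log2 fold change of -0.08 (-0.02 without A4, -0.13 without A2 and -0.0043 with GC-content correction), and 0 had an adjusted p under 0.1 with limma, while 1 was higher and 1 lower at an unadjusted p under 0.05, where 10.5% of all genes tested were. The largest value was that of Osmr, the oncostatin M receptor, at 0.69, 0.68 and 0.71 FPKM in the control mice and 2.11, 1.27 and 1.30 FPKM in the depleted mice. All depleted mice were above all control mice, as 17.6% of all genes were apart in either direction, with a log2 fold change of 0.58 (95% interval 0.19 to 0.97; limma, unadjusted p = 0.00873, adjusted p = 0.378) and 0.43 without A4. The smallest was that of Nrtn, neurturin, a ligand of the GDNF family, at -0.27, and its groups overlapped. It was -0.55 without A5 and -0.11 at the other end of the values with a mouse left out.

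The lists of other cell types gave these values. The 6 choroid plexus markers summed to 165.1 to 321.1 FPKM in control mice and 44.0 to 67.6 FPKM in depleted mice, with 5 of 5 tested lower. The 5 oligodendrocyte precursor markers summed to 29.1 to 32.1 FPKM in control and 25.7 to 26.2 FPKM in depleted mice. The sums of the neuron (2527 to 2805 against 2385 to 2711 FPKM), interneuron (535.1 to 568 against 447.9 to 539.5 FPKM), astrocyte (1185 to 1326 against 1192 to 1303 FPKM) and striatal lists (238.8 to 278.6 against 238.7 to 286.6 FPKM) overlapped. So did those of thalamic neurons (53.9 to 68.0 against 41.8 to 56.6 FPKM) and Schwann cells (0.55 to 1.25 against 0.92 to 1.40 FPKM). Within the astrocyte list, 2 markers were higher without overlap, Gfap among them, and 2 were lower without overlap, Aldoc and Gja1. Sums were lower and did not overlap for mural cells (42.2 to 51.6 against 33.3 to 40.4 FPKM), meningeal fibroblasts (55.6 to 62.3 against 39.6 to 50.9 FPKM) and dentate granule neurons (10.1 to 10.8 against 6.61 to 8.87 FPKM). They were higher for endothelium (20.2 to 23.1 against 23.5 to 26.8 FPKM). Few single markers of these 4 lists did not overlap: 1 of 6, 1 of 8, 0 of 4 tested and 1 of 7, beside 17.6% of all genes tested. The fibroblast marker was Igf2, at 23.3 to 24.2 FPKM in control and 11.9 to 17.9 FPKM in depleted mice. Of the endothelial markers, 5 were higher and 2 lower. The part of these cell types in the values of the neurotrophin genes was not tested.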
